A study of Mus musculus with 18 samples.

Results

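The secretory products and detoxifying enzymes of club cells were followed here as a group of 10 genes, taken by symbol from the 46603 genes of the mouse annotation used in this series. The group held 3 secretoglobins (Scgb1a1, Scgb3a1 and Scgb3a2), the cytochrome P450 genes Cyp2f2 and Cyp4b1, the carbonyl reductase gene Cbr2, the aldehyde dehydrogenase genes Aldh1a1, Aldh1a7 and Aldh3a1, and the glutathione transferase gene Gsta4. The members were chosen by name, not by how they behaved, although earlier results of these data were known. RNA was sequenced from 18 three-dimensional cultures of mouse lung cells, 10 of organoids before transplantation and 8 of tumor organoids, called tumoroids.

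Every culture came from mice with a human EGFR gene carrying T790M and L858R in the Col1a1 locus behind a CAG promoter and a lox-stop-lox cassette, which Cre removes. Organoids had been infected with Ad-Cre, an adenovirus that switches the transgene on, or with the control virus Ad-GFP. They grew from NGFR-negative tracheal cells (club-sorted) and NGFR-positive tracheal cells (basal-sorted), from Sca1-negative alveolar type 2 (AT2) cells, and from Sca1-positive bronchioalveolar stem cells (BASCs). The trachea gave 4 organoid cultures and the AT2 cells 2, each population once with each virus. BASCs gave 4, namely mixed Ad-GFP, mixed Ad-Cre, alveolar Ad-Cre and bronchiolar Ad-Cre, the last pair being hand-picked subcultures. Tumoroids were regrown from orthotopic tumors that Ad-Cre organoids formed in immunocompromised mice: 3 of AT2 origin, 3 of mixed BASC origin and 1 of bronchiolar BASC origin. One more (n = 1) came from an autochthonous tumor, which arose in a transgenic mouse after adenoviral Cre. All cultures also held neonatal lung support cells, which the paper calls mesenchymal in its methods and mesenchymal endothelial in its results. The 3 AT2-derived tumoroids carry an NGFR-negative sorting label beside their AT2 origin and were placed by origin.

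Club cells are the dome-shaped secretory cells of the airway epithelium. They release secretoglobins into the airway lining fluid and carry high levels of P450 enzymes, which oxidize inhaled chemicals, together with reductases, aldehyde dehydrogenases and glutathione transferases that deal with the reactive products. Scgb1a1, also known as CCSP or CC10, is the classical club cell marker, and BASCs are defined in part by holding it together with the AT2 product Sftpc.

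Organoid libraries were prepared with TruSeq reagents and held 27772660 to 97191624 expected counts, whereas tumoroid libraries were made on the DNBSEQ platform and held 15327265 to 23355938. Effects of the platform and of transplantation can therefore not be told apart here. Levels are given as CPM (counts scaled to library size) with TMM scaling over the 18 libraries, and a count of 3, taken as the floor, was worth 0.0321 to 0.187 CPM. That floor covers counting error only. Because these are bulk cultures, fewer cells of a type and less RNA per cell cannot be told apart. The sorted labels were checked against cell type markers. The 6 basal cell markers summed to 4589 to 4832 CPM in the club-sorted cultures and to 3869 to 4443 CPM in the basal-sorted cultures, so at the time of RNA extraction the club-sorted cultures held basal cell transcripts as well. The 10 AT2 markers summed to 51990 to 63540 CPM in AT2 organoids and 55450 CPM in the alveolar BASC culture, against 804.9 to 1232 CPM in the trachea and 1572 to 3742 CPM in the other 3 BASC cultures. Among tumoroids, AT2 replicate 3 stood apart, with 6 fibroblast markers at 10250 CPM and the AT2 markers at 18820 CPM, and the bronchiolar tumoroid had the AT2 markers at 7309 CPM and the basal markers at 1786 CPM. In the mixed BASC tumoroids the AT2 markers summed to 39700, 23010 and 35730 CPM, in order of replicate. The 4 endothelial markers summed to 0.574 to 1.16 CPM in organoids and 0.626 to 9.56 CPM in tumoroids.

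Most members were high in the tracheal cultures, in the mixed and bronchiolar BASC cultures and in the bronchiolar tumoroid. Scgb1a1 was low in the trachea, Aldh1a7 had similar levels in most cultures, and Aldh1a1 was high in the trachea but not in the bronchiolar tumoroid. The plot of all members by culture shows these values.

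**Figure D1:**
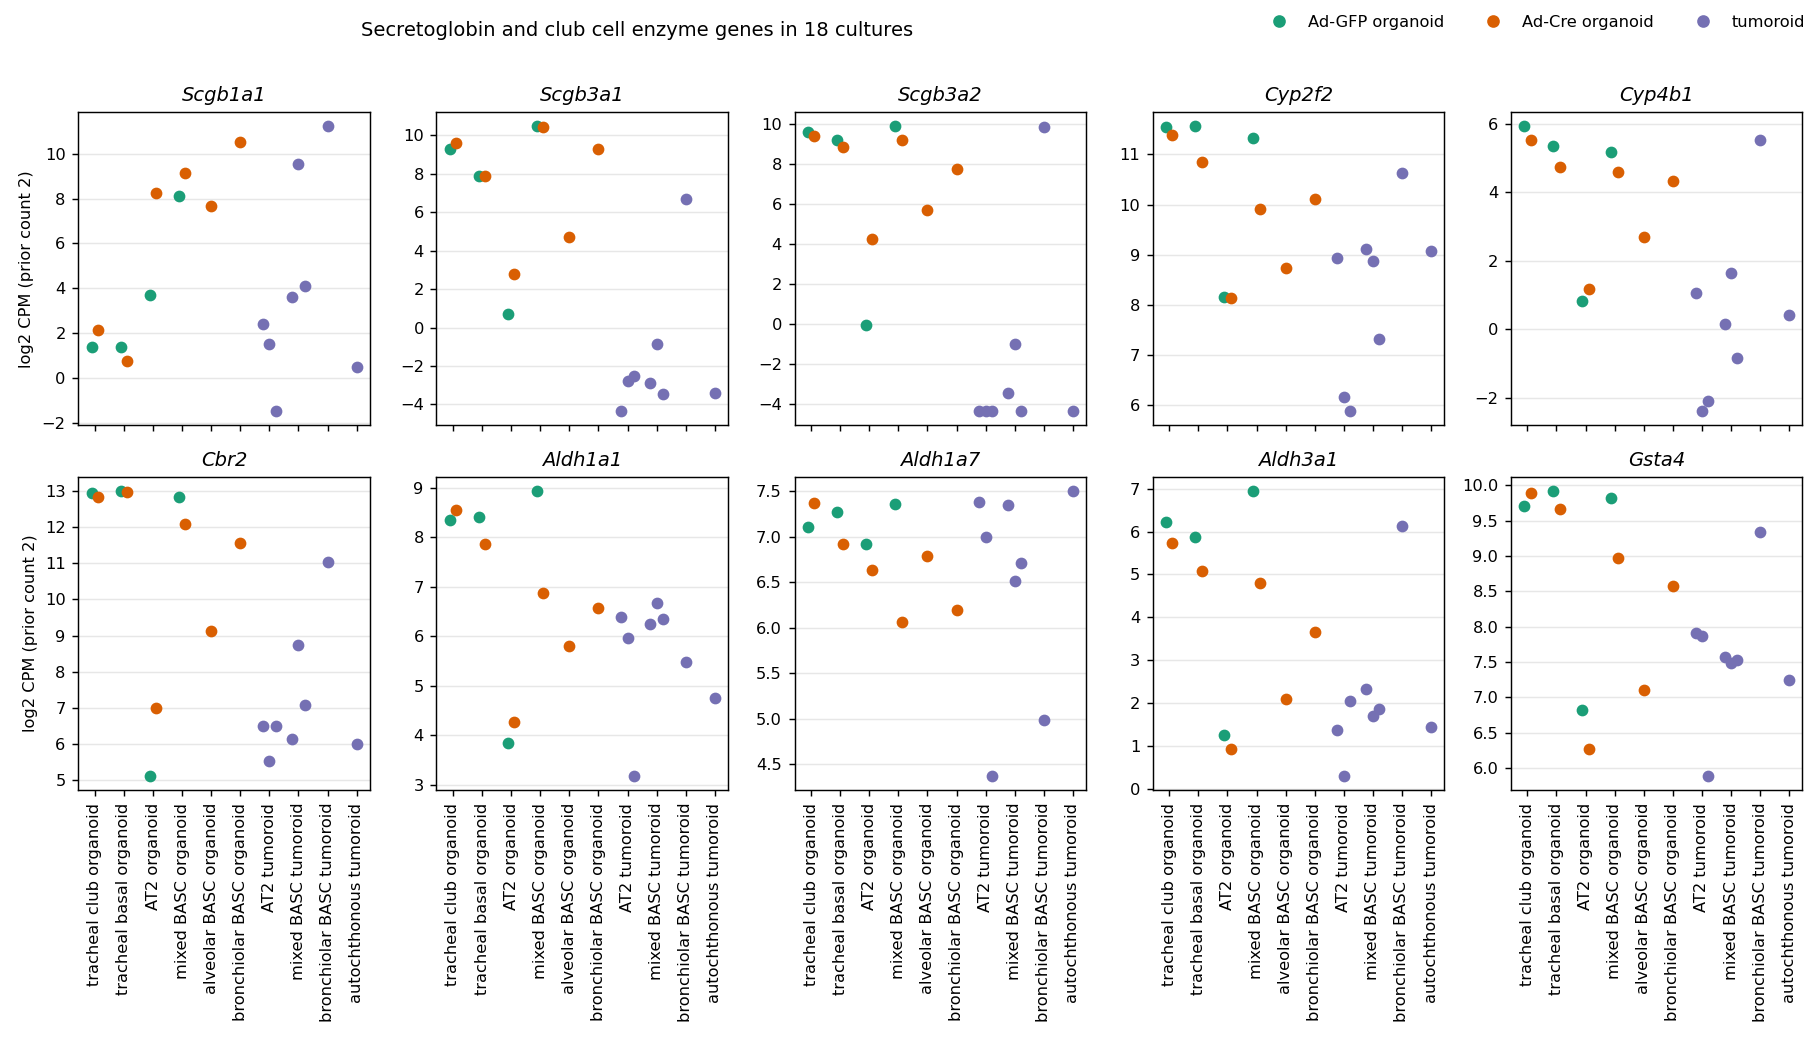
Level of each member in the 18 cultures, as log2 CPM computed with a prior count of 2, by type of culture on the horizontal axis; green points are Ad-GFP organoids, orange points Ad-Cre organoids and purple points tumoroids. Scgb1a1 is low in the 4 tracheal cultures and higher in all BASC organoid cultures. Scgb3a1, Scgb3a2 and Cbr2 are high in tracheal, mixed BASC and bronchiolar BASC organoids and lower in the alveolar BASC organoids.

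Scgb1a1 (ENSMUSG00000024653, chromosome 19, 9083636 to 9087958, minus strand, GRCm38) was close to absent from the tracheal cultures. The club-sorted cultures held 2.57 CPM with Ad-GFP and 4.42 CPM with Ad-Cre. The basal-sorted cultures held 2.53 CPM and 1.65 CPM in the same order. In the tracheal libraries these levels rested on 76 to 157 reads, well over the floor of 3. The AT2 organoids held 12.8 CPM with Ad-GFP and 301 CPM with Ad-Cre, so the 2 AT2 cultures lay far apart. Among BASC organoids Scgb1a1 stood at 277 CPM (mixed Ad-GFP), 562 CPM (mixed Ad-Cre), 201 CPM (alveolar) and 1488 CPM (bronchiolar), and all 4 lay above all 4 tracheal cultures. In tumoroids the 3 of AT2 origin held 5.26, 2.79 and 0.311 CPM. Those of mixed BASC origin held 12.3, 736 and 17.0 CPM, and the bronchiolar tumoroid 2370 CPM, the highest level of all 18 cultures. On the log2 CPM scale, mixed BASC replicate 2 (9.52) lay nearer to the bronchiolar tumoroid (11.2) than to the other 2 of its own group (3.62 and 4.09). In CPM itself, replicate 2 lay nearer to its own group. The autochthonous tumoroid held 1.38 CPM.

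Scgb3a1 (chromosome 11, 49663610 to 49665118, plus strand), a secretoglobin of the larger airways, was abundant in the trachea. Its level was 635 and 787 CPM in club-sorted cultures (Ad-GFP, then Ad-Cre) and 238 and 234 CPM in basal-sorted ones. The mixed BASC cultures held 1415 and 1380.1 CPM, the bronchiolar BASC culture 627 CPM and the alveolar BASC culture 26.0 CPM. AT2 organoids held 1.61 and 6.91 CPM. Of the 8 tumoroids, 6 had at most 3 reads of Scgb3a1, mixed BASC replicate 2 had 12, and the bronchiolar tumoroid had 2285 reads, or 102 CPM.

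Scgb3a2, the related secretoglobin of the conducting airways, was likewise high in the trachea and in the mixed BASC cultures. The 4 tracheal cultures held 775, 665, 591 and 456 CPM, and the mixed BASC cultures 938 and 578 CPM. The bronchiolar BASC culture held 218 CPM and the alveolar one 52.2 CPM, both below all 4 tracheal cultures. AT2 organoids held 0.908 CPM with Ad-GFP and 18.7 CPM with Ad-Cre. In tumoroids 5 of 8 libraries had no read at all, which allows up to 3 reads, or 0.127 to 0.187 CPM in the 4 of these that came from transplants, while the bronchiolar tumoroid held 20730 reads, or 927 CPM.

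Per transcript length, the secretoglobin mixture differed between trachea and distal lung. In TPM, which scales for length and so allows genes to be compared, Scgb1a1 made up 0.204% to 0.348% of the summed TPM of the 3 secretoglobins in the 4 tracheal cultures. It made up 11.5% in the mixed Ad-GFP, 23.9% in the mixed Ad-Cre, 65.7% in the bronchiolar and 74.6% in the alveolar BASC culture. In the AT2 cultures its share was 85.0% and 93.1%. The bronchiolar BASC culture and the bronchiolar tumoroid had similar summed levels, 9728 and 11635 TPM, and shares of Scgb1a1 of 65.7% and 72.8%. They differed in which other secretoglobin followed. Scgb3a1 came second in the bronchiolar organoid culture (26.1%, with Scgb3a2 at 8.18%), and Scgb3a2 came second in the bronchiolar tumoroid (24.3%, with Scgb3a1 at 2.91%). With 1 library each, this difference has no replicate check.

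**Figure D2:**
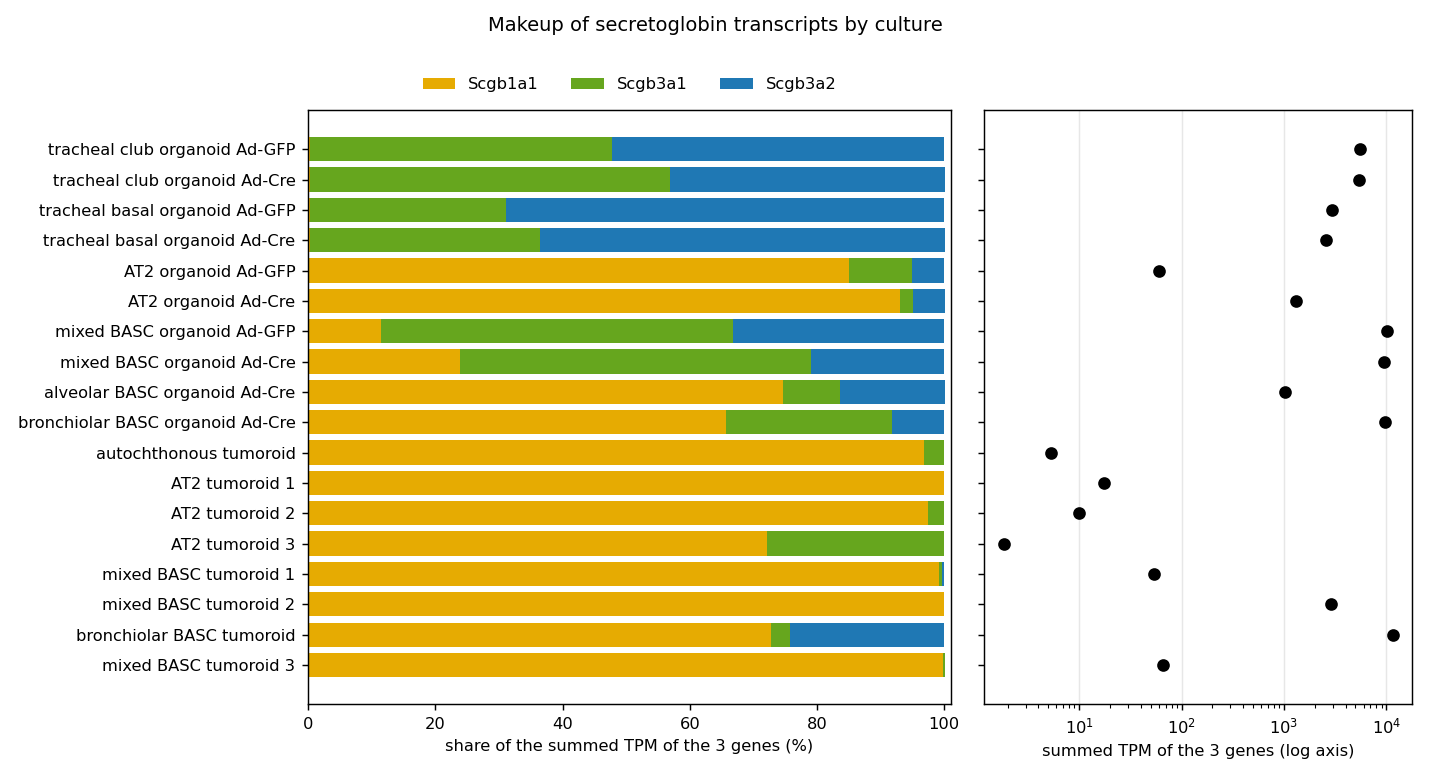
Left, share of Scgb1a1, Scgb3a1 and Scgb3a2 in their summed TPM in each of the 18 cultures; right, that summed TPM on a log axis. Tracheal cultures are almost free of the Scgb1a1 share at sums of 2589.6 to 5558 TPM, and the autochthonous and AT2 tumoroids, which have the lowest sums, rest on 5 to 108 reads of Scgb1a1.

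Scgb3a1 and Scgb3a2 followed each other over the 18 cultures with a Pearson r of 0.980 of their log2 CPM, the closest pair among the members, as a description over libraries that share platform and culture type. Scgb1a1 had an r of at most 0.394 with any other member. The RefSeq sequence of 250 bases before the start of Scgb3a1 is shown because this secretoglobin had a different level in each tracheal sort and each BASC subculture. Capitals mark the only match found there to any of the 8 motifs searched on both strands. These were AP-1 (TGANTCA), C/EBP (TTGCNNAA), FOXA (TGTTTAC and its variant TGTTTGC), TEAD (GGAATG), SOX (ATTGTT), GRHL (AACNGGTT) and the TATA box (TATAAA). The match reads GCAAACA on the gene's strand, the reverse complement of the FOXA variant, and begins at base -55 from the start. That motif stood in 4.31% of 32536 mouse windows of the same length, and the match is a description of letters, not a site. The window is chr11:49663345-49663594, plus strand, GRCm38.p6.
Scgb3a1: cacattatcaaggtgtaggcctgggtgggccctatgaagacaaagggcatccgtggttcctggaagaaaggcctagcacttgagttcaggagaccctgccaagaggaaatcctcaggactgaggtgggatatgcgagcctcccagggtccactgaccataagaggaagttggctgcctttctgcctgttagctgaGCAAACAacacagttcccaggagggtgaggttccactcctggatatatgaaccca

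Cyp2f2 (chromosome 7, 27119909 to 27133660, plus strand), the pulmonary P450 that activates naphthalene, was expressed in all 18 cultures. Its level was 2987 and 2667 CPM in club-sorted, and 3014 and 1855 CPM in basal-sorted cultures. BASC organoids held 2563 CPM (mixed Ad-GFP), 960 CPM (mixed Ad-Cre), 428 CPM (alveolar) and 1110.5 CPM (bronchiolar). AT2 organoids held 286 and 282 CPM, below all other organoids yet far from zero, and in the Ad-GFP culture Cyp2f2 had the highest TPM of the 10 members (261.5). In tumoroids it ranged widely: 490, 71.7 and 58.8 CPM for those of AT2 origin, 551, 470.0 and 159 CPM for mixed BASC, 1589.9 CPM for the bronchiolar and 537 CPM for the autochthonous tumoroid. Tumoroids of the same origin thus differed by more than did the 2 AT2 organoid cultures.

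Cyp4b1 (chromosome 4, 115624725 to 115647723, minus strand), another lung P450, followed Cyp2f2 at a level per length that was lower in every culture. The tracheal cultures held 60.6, 46.1, 40.7 and 26.7 CPM and AT2 organoids 1.73 and 2.19 CPM. In BASC organoids the level was 36.0, 24.2, 6.38 and 20.1 CPM in the order mixed Ad-GFP, mixed Ad-Cre, alveolar and bronchiolar. The 6 alveolar tumoroids, meaning those of AT2 and mixed BASC origin, held 0.142 to 3.10 CPM with a median of 0.784 CPM, and the bronchiolar tumoroid 46.3 CPM. The name alveolar goes by origin here, and mixed BASC replicate 2 among them also held 736 CPM of Scgb1a1. Cyp2f2 and Cyp4b1 had an r of 0.950 over the 18 cultures. The window before Cyp4b1 is printed as the partner of Cyp2f2, with its one match in capitals, TGAATCA, an AP-1 motif beginning at base -169. This motif was present in 6.73% of windows, and the Cyp2f2 window had no match to the 8 motifs. The Cyp4b1 window is chr4:115647722-115647971, minus strand, GRCm38.p6.
Cyp4b1: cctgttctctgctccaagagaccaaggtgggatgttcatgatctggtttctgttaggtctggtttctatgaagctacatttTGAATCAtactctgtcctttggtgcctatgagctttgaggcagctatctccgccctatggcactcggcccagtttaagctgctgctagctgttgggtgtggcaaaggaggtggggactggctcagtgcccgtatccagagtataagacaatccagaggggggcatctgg

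Cbr2 (chromosome 11, 120729489 to 120732114, minus strand), a carbonyl reductase that is a major protein of mouse airway cells, was the most abundant member per length in 8 of the 18 cultures, among them all 4 of the trachea. Tracheal cultures held a narrow 7363 to 8168 CPM. BASC organoids held 7245 CPM (mixed Ad-GFP), 4356 CPM (mixed Ad-Cre), 554 CPM (alveolar) and 3045 CPM (bronchiolar), and AT2 organoids 34.6 and 128 CPM. The alveolar tumoroids held 46.3 to 425 CPM with a median of 90.2 CPM, against 2092 CPM in the bronchiolar tumoroid and 63.9 CPM in the autochthonous one.

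The aldehyde dehydrogenases did not move as one family. Aldh1a1 (chromosome 19, 20492715 to 20643465, plus strand), which makes retinoic acid from retinaldehyde, held 326, 375, 342 and 231 CPM in the trachea (club-sorted Ad-GFP and Ad-Cre, then basal-sorted Ad-GFP and Ad-Cre) and only 14.4 and 19.2 CPM in AT2 organoids. BASC organoids held 488, 116, 56.1 and 94.3 CPM in the order used above. Alveolar tumoroids held 9.01 to 102 CPM with a median of 78.8 CPM, and the bronchiolar tumoroid 44.7 CPM, within their range. Aldh3a1 (chromosome 11, 61207537 to 61218421, plus strand), which oxidizes medium-chain aldehydes, followed the airway pattern instead, with 74.9, 53.5, 58.9 and 33.6 CPM in the trachea, 2.32 and 1.86 CPM in AT2 organoids, and 123, 27.6, 4.22 and 12.6 CPM in BASC organoids. Alveolar tumoroids held 1.18 to 4.94 CPM of Aldh3a1 and the bronchiolar tumoroid 69.6 CPM.

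Aldh1a7, the rodent neighbour of Aldh1a1 on chromosome 19 (20692953 to 20727562, minus strand), varied less across organoids, from 66.7 to 165 CPM. Its values were 138, 165, 154 and 121 CPM in the trachea, 121 and 99.1 CPM in AT2 cells, and 164, 66.7, 110 and 73.0 CPM in BASC organoids. The BASC values overlapped both other sources, and the lowest tracheal culture lay just above the higher AT2 culture. Among tumoroids it was low in the bronchiolar tumoroid (31.7 CPM) and AT2 replicate 3 (20.7 CPM) and stood at 91.0 to 181 CPM in the other 6. As a ratio of TPM, Aldh1a7 over Aldh1a1 was 0.419 to 0.520 in the trachea and 8.34 and 5.12 in AT2 organoids. The pair had an r of 0.503 over the 18 cultures. The last 100 bases before the start of Aldh1a7 and before the downstream RefSeq start of Aldh1a1 are printed because these genes differed in pattern while these bases are close to identical: 94 of 100 positions agree, and capitals mark the longest shared run of 65 bases. Aldh1a1 also has a RefSeq start further upstream. The start shown was picked because its bases agreed most with those of Aldh1a7. The stretches are chr19:20601868-20601967 on the plus strand for Aldh1a1 and chr19:20727557-20727656 on the minus strand for Aldh1a7, both GRCm38.p6. The 2 genes' transcripts also share 50-base stretches (3.06% of those in Aldh1a1 and 7.49% of those in Aldh1a7), so a small part of the reads could be split between them by RSEM.
Aldh1a1: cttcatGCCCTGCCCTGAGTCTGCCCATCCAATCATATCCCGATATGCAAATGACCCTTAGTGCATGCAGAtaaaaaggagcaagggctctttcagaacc
Aldh1a7: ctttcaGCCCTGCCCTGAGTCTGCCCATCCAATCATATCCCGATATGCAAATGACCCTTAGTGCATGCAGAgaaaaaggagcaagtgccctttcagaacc

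Gsta4 (chromosome 9, 78182774 to 78209349, plus strand), a glutathione transferase that acts on the lipid peroxidation product hydroxynonenal, held 834, 952, 967 and 812 CPM in the trachea, 113 and 76.8 CPM in AT2 organoids, and 905, 502, 137 and 380 CPM in BASC organoids. Alveolar tumoroids held 59.1 to 240.0 CPM with a median of 187 CPM, higher than both AT2 organoids in all but AT2 replicate 3. The bronchiolar tumoroid held 647 CPM. Shared 50-base stretches with other genes were also found for Cbr2 (12.1%, with the predicted gene Gm11771), Cyp2f2 (9.0%, with Gm15883) and Cyp4b1 (8.26%, with its pseudogenes Cyp4b1-ps1 and Cyp4b1-ps2), and none for the secretoglobins, Aldh3a1 or Gsta4.

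Tracheal organoids were first compared with AT2 organoids (4 against 2 cultures), to ask how far the sources of the 2 epithelia differ in this program. Of the 10 members, 8 were higher in the trachea and 1, Scgb1a1, was lower. With edgeR's quasi-likelihood test over 19349 genes in one fit of the 10 organoid cultures, genes with an adjusted p below 0.05 made up 21.9% higher and 23.4% lower. The largest difference was that of Scgb3a1 (log2 fold change 6.77, SE 1.68, adjusted p = 0.0142), followed by Cbr2 (6.56, SE 1.13, adjusted p = 0.00739) and Scgb3a2 (5.96, SE 1.54, adjusted p = 0.0161). Cyp4b1 was 4.44 higher on the log2 scale (SE 0.695, adjusted p = 0.00694). Scgb1a1 fell by 5.84 (SE 1.13, adjusted p = 0.00833), with a log2 fold change of -6.79 without the AT2 Ad-GFP culture and -2.24 without the AT2 Ad-Cre culture. The 4 remaining members that were called lay between 3.18 (Cyp2f2) and 4.69 (Aldh3a1). Aldh1a7 was not called (0.36, SE 0.345, adjusted p = 0.407). The median log2 fold change of the members was 4.33 beside 0.07 over all genes tested. These calls rested on both AT2 cultures, which by the paper were aliquots of the same sorted cells. Without the Ad-GFP culture no gene passed with edgeR, although 7645 had an unadjusted p below 0.05, and the members' adjusted p lay at 0.0551 or above; without the Ad-Cre culture 3 members (Scgb3a2, Cyp4b1 and Cbr2) and 2305 genes passed. In these fits the lone AT2 sample was assumed to vary like the other groups. Basal and multiciliated cell markers (6 of 6 genes each) were also higher in the trachea, and all 6 fibroblast markers and 9 of 10 AT2 markers were lower. Their part in the members' differences was not tested.

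Other genes of the same kind were read from 2 lists. Of 20 airway secretory genes outside the members, 13 were higher and 3 lower in the trachea, with a median of 4.35. Reg3g, an antimicrobial lectin, was 10.45 higher on the log2 scale (SE 1.42, adjusted p = 0.00678) and Lypd2 9.81 higher (SE 1.41, adjusted p = 0.00678). In the other direction, Retnla, a resistin-like protein, fell by 7.33 (SE 0.907, adjusted p = 0.00678), and the secretoglobin Scgb1c1 was called lower from 1.04 to 1.20 CPM in AT2 organoids against at most 0.0675 CPM in the trachea. Of 34 genes of xenobiotic and aldehyde metabolism, 33 were tested, 13 were higher and 7 lower, with a median of 0.34. Aldh1a3, another retinaldehyde dehydrogenase, was 9.18 higher (SE 2.02, adjusted p = 0.0105), and the sulfotransferase gene Sult1d1 was called higher from 20.9 to 47.7 CPM against at most 0.0279 CPM. The aldehyde oxidase gene Aox3 fell by 3.29 (SE 0.824, adjusted p = 0.0145) and Cyp1a1, an aryl hydrocarbon-inducible P450, fell by 4.84 (SE 1.62, adjusted p = 0.0372).

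In the same fit, BASC organoids (4 cultures) lay between the trachea and AT2 organoids for 7 of the 10 members, with a wide spread of their own. Against the trachea no member was called, at a background of 0.0103% of genes higher and 0% lower, with 3764 genes at an unadjusted p below 0.05. Scgb1a1 was lower in the trachea (log2 fold change -7.81, SE 1.17, unadjusted p = 8.47e-05), with an adjusted p of 0.0777 by edgeR. DESeq2 called Scgb1a1 (adjusted p = 2.37e-17) and no other member. When the mixed BASC Ad-GFP culture was left out, the one most like the trachea in Cbr2, Cyp2f2 and Gsta4, edgeR called 6 members and 3614 genes. Scgb1a1 then had a log2 fold change of -8.05 (adjusted p = 0.00828) and Cyp2f2 of 1.68 (adjusted p = 0.0142). Cyp4b1 (1.01, SE 0.447, adjusted p = 0.255) and Cyp2f2 (1.06, SE 0.457, adjusted p = 0.247) did not pass with all cultures in the fit.

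BASC organoids against AT2 organoids likewise gave 0 called members and 0% of genes in each direction by edgeR, with 6594 genes at an unadjusted p below 0.05. DESeq2 called 8 members and 4429 genes. The log2 fold change was 7.62 for Scgb3a1 (SE 1.75, adjusted p = 0.0578), 5.51 for Cbr2 (SE 1.07, adjusted p = 0.0571) and 3.42 for Cyp4b1 (SE 0.656, adjusted p = 0.0571), all higher in BASC cultures. Scgb1a1 was 1.97 higher (SE 1.17, adjusted p = 0.246), with 1.03 without the AT2 Ad-GFP culture and 5.59 without the AT2 Ad-Cre culture. The median of the members was 3.44 and that of all genes 0.04. Leaving out the alveolar BASC culture, whose AT2 markers stood at the AT2 level, brought 8 members and 9298 genes past the threshold. These 3 comparisons share their cultures and are not independent of each other.

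The next comparison set the 2 club-sorted tracheal cultures against the 3 BASC cultures that hold bronchiolar organoids (both mixed ones and the bronchiolar one), to see whether airway-like cells of trachea and distal lung use the same secretory genes. By edgeR no gene of 18529 passed (0% in each direction), and 1594 had an unadjusted p below 0.05. Scgb1a1 was lower in the club-sorted cultures (log2 fold change -7.76, SE 1.03, unadjusted p = 0.000442, adjusted p = 0.556). DESeq2 called 287 genes and 1 member, Scgb1a1 (adjusted p = 7.76e-25). Of the other 9 members, Scgb3a1 was at -0.66 on the log2 scale (SE 0.403), and the other 8 lay between 0.26 (Aldh3a1, SE 0.932) and 1.02 (Cyp4b1, SE 0.285). The groups of Scgb1a1 did not overlap, at 2.57 and 4.42 CPM against 277 to 1488 CPM. Those of 3 more members, all higher in the club-sorted cultures, did not overlap either: Cyp4b1 at 46.1 and 60.6 against 20.1 to 36.0 CPM, Cyp2f2 at 2667 and 2987 against 960 to 2563 CPM, and Cbr2 at 7363 and 7833 against 3045 to 7245 CPM. The groups of the other 6 overlapped. The share of all genes whose groups do not overlap was not counted. The number of separate members is therefore not read as a result about them.

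With edgeR, leaving out 1 culture at a time gave calls only without the mixed BASC Ad-GFP culture. In that fit 7 members and 1933 genes were called, Scgb1a1 lower (-8.15, adjusted p = 0.00753) and 6 higher in the club-sorted cultures, among them Aldh1a1 (1.76, adjusted p = 0.00828) and Aldh1a7 (1.15, adjusted p = 0.0120). The distal side then held Ad-Cre cultures only, against club-sorted cultures of both viruses. With Ad-Cre cultures alone on both sides, which leaves 1 club-sorted library, the members' median log2 fold change was 1.1, a value only. With the bronchiolar BASC culture alone on the distal side, Scgb1a1 was at -8.67, Scgb3a1 changed sign to 0.23, and the other 8 members lay between 1.10 (Aldh1a7) and 2.39 (Aldh3a1). These are values only, since 1 library gives no spread for the distal side. Basal markers summed to 1205 to 3096 CPM and AT2 markers to 1572 to 3742 CPM in these BASC cultures, against 4589 to 4832 CPM and 997.4 to 1232 CPM in the club-sorted ones, and their part was not tested. The plot of fold changes sets this comparison beside that of trachea and AT2.

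**Figure D3:**
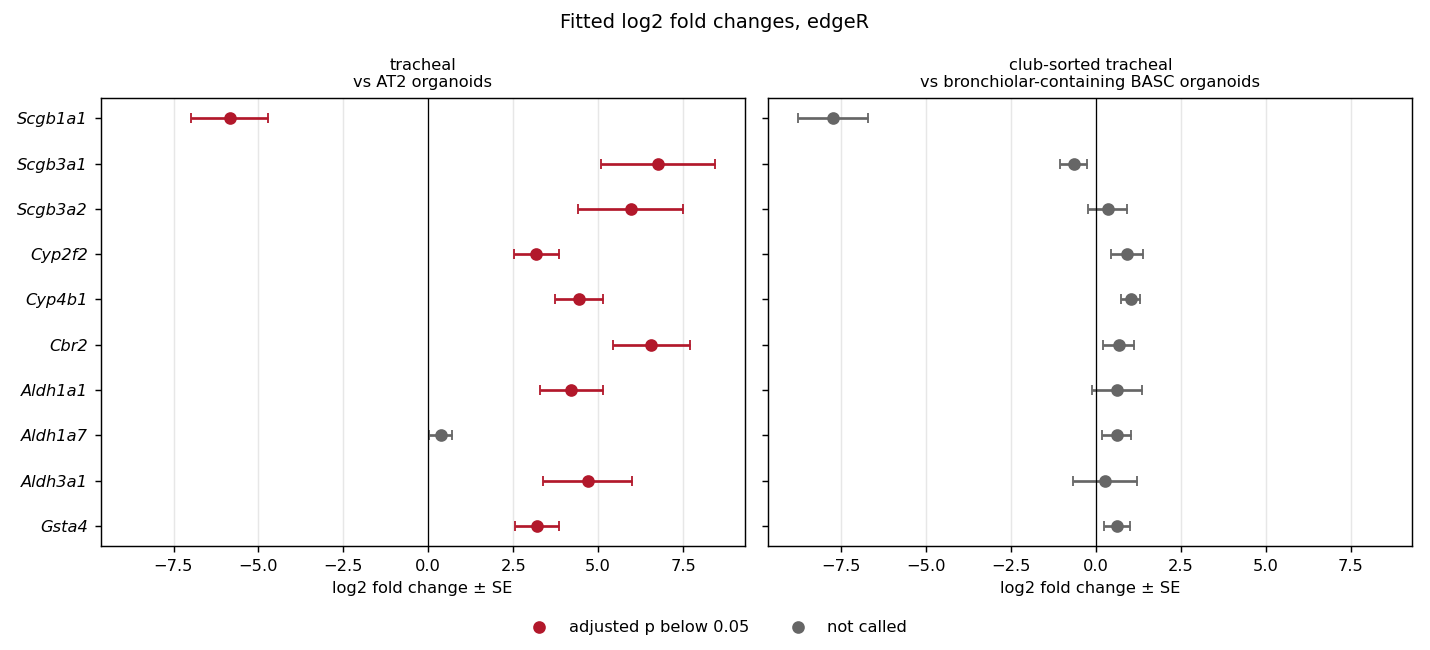
Fitted log2 fold change of each member with its standard error, for 4 tracheal against 2 AT2 organoid cultures (left) and 2 club-sorted tracheal against 3 bronchiolar-containing BASC cultures (right); red points had an adjusted p below 0.05 by edgeR. Scgb1a1 is the one member far below 0 in both, and Aldh1a7 is the one member not called on the left.

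Within the trachea, the 2 club-sorted were compared with the 2 basal-sorted cultures, which asks whether the NGFR sort left a mark after culture. By the paper, the cultures of a side were aliquots of the same sorted cells, so the p-values measure no spread between sorts. Scgb3a1 was higher after the club sort (log2 fold change 1.60, SE 0.117, adjusted p = 0.00178), the 1 member called by edgeR, at a background of 0.186% of 17234 genes higher and 0.0812% lower. Scgb3a2 (0.47, SE 0.142, adjusted p = 0.350) and Cyp4b1 (0.67, SE 0.199, adjusted p = 0.346) did not pass, although DESeq2 called both (adjusted p = 0.0265 and 0.0258), and without the club-sorted Ad-Cre culture edgeR did too (adjusted p = 0.0246 and 0.0153). The log2 difference of Scgb1a1 was 0.76 (SE 0.320, adjusted p = 0.587), at levels of 1.65 to 4.42 CPM. Of 19 airway secretory genes tested, 3 were higher and none lower, among them the mucin gene Muc5b (1.71, SE 0.168, adjusted p = 0.0102) and Bpifa1 (0.97, SE 0.145, adjusted p = 0.0491). Of 32 metabolic genes tested, the paraoxonase gene Pon1 (1.13, SE 0.139, adjusted p = 0.0280) and Aox3 (1.00, SE 0.125, adjusted p = 0.0284) were higher. None of the 6 basal markers was called.

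Ad-Cre was compared with Ad-GFP within the 4 sorted populations that had both, with the population as a block, because each sort had been split between the viruses. No gene passed with edgeR (0% of 17749 in each direction, 350 at an unadjusted p below 0.05), and DESeq2 called 5 genes and no member. Aldh3a1 was lower with Ad-Cre in 4 of 4 pairs, by -0.31 in AT2 to -2.15 in mixed BASC organoids (log2 fold change -0.97, SE 0.319, unadjusted p = 0.0243, adjusted p = 0.994). Cyp2f2 was also lower in 4 of 4 pairs, from -0.02 in AT2, where the pair was nearly level, to -1.42 in mixed BASC organoids (-0.58, SE 0.264, adjusted p = 0.994). The share of all genes lower in 4 of 4 pairs was not counted, so these signs are not read as a result. Scgb1a1 was higher in 3 of 4 pairs and lower in the basal-sorted one (1.43, SE 0.878, adjusted p = 0.994). Its largest pairwise difference, 23.4-fold, was in AT2 organoids, where Scgb3a2 was 19.6-fold and Scgb3a1 4.20-fold higher with Ad-Cre, at 1 culture per virus. In mixed BASC organoids Aldh1a1 stood at 0.239 and Aldh3a1 at 0.225 of the Ad-GFP level. The median over members was -0.36 and that over all genes tested -0.01 (log2), and without the mixed BASC pair the members' median was -0.05.

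**Figure D4:**
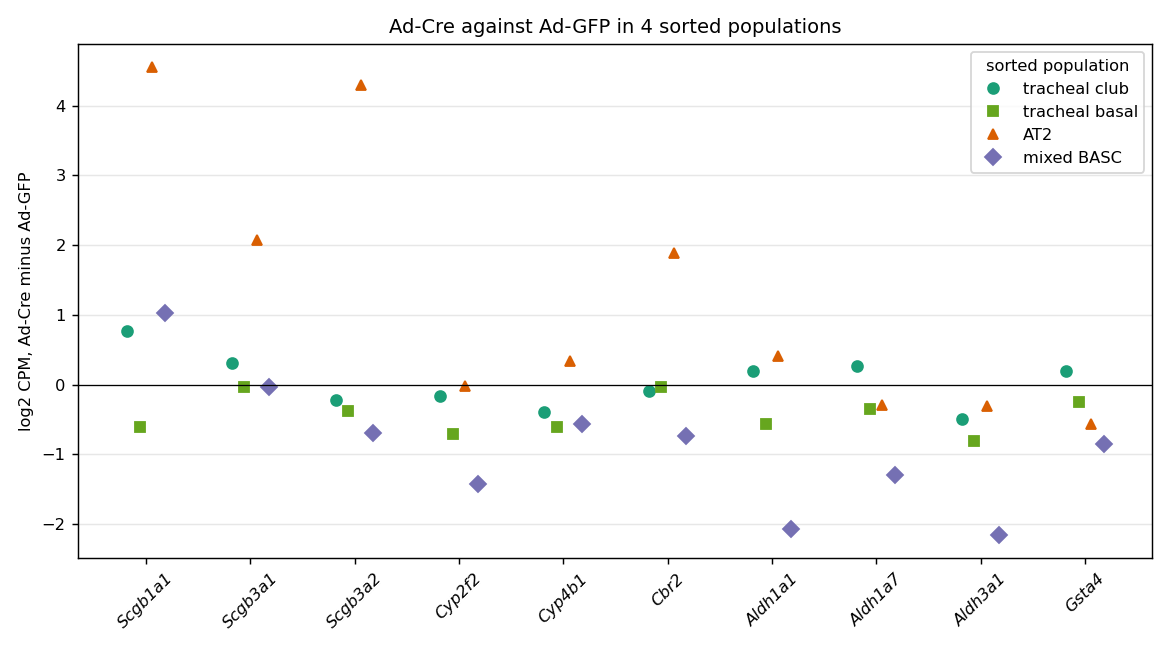
Difference in log2 CPM between the Ad-Cre and the Ad-GFP culture of the same sorted population (vertical axis) for each member, 1 point per population. All 4 points of Aldh3a1 and of Cyp2f2 lie below 0, and the AT2 points of Scgb1a1 and Scgb3a2 lie above 4.

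Tumoroids were next compared with organoids before transplantation. Across 7 transplant tumoroids and the 4 distal Ad-Cre organoid cultures, no member was called by edgeR or by DESeq2, at a background of 10.8% of 16139 genes higher and 8.77% lower in tumoroids. Members with an unadjusted p below 0.05 were limited to Scgb3a1 (log2 fold change -5.08, SE 2.20, adjusted p = 0.127). Cbr2 had -2.22 (SE 1.15, adjusted p = 0.196), Cyp2f2 -0.49 (SE 0.789, adjusted p = 0.704) and Scgb1a1 -0.48 (SE 1.77, adjusted p = 0.879). The bronchiolar tumoroid carried this spread: without it 4 members were lower in tumoroids, namely Scgb3a1 (adjusted p = 0.00172), Scgb3a2, Cyp4b1 and Cbr2 (-3.75, SE 0.920, adjusted p = 0.0166), beside 3716 genes. The 6 basal markers summed to 17.4 to 2356 CPM in the 4 organoid cultures and 1.17 to 25.5 CPM in the alveolar tumoroids, and the 6 multiciliated markers to 17.9 to 312.7 and 6.76 to 27.5 CPM. Their part was not tested. Fold changes of Scgb3a1 and Scgb3a2 are not given for that fit because nearly all tumoroids lay at or under 3 reads. Of 20 airway secretory genes outside the members, 3 were lower, among them Bpifb1, a secreted lipid-binding protein (-6.47, SE 1.39, adjusted p = 0.00925), and Reg3g, which held 3.19 to 1796 CPM in the organoids and at most 0.179 CPM in tumoroids. Of 31 metabolic genes tested, 3 were higher and 2 lower. Gstm1 (1.91, SE 0.331, adjusted p = 0.00376) and Gsta1 (2.28, SE 0.664, adjusted p = 0.0342), both glutathione transferases, were higher, whereas Pon1 (-4.75, SE 0.736, adjusted p = 0.00219) and the flavin monooxygenase gene Fmo1 (-2.42, SE 0.466, adjusted p = 0.00584) were lower. The labels do not say whether tumoroids that share a number in their name came from the same mouse, and the tests hold if they are separate samples.

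AT2-derived and mixed BASC-derived tumoroids (3 against 3) gave no called member. Scgb3a1 and Scgb3a2 did not pass the filter on low counts, and the other 8 were tested. By edgeR 0% of 15470 genes were called in each direction, 144 had an unadjusted p below 0.05, and DESeq2 called 7 genes and no member. Scgb1a1 was lower in AT2 tumoroids (log2 fold change -6.52, SE 2.04, unadjusted p = 0.0171, adjusted p = 1), a difference set largely by mixed BASC replicate 2. Without that tumoroid it was -2.39. The groups did not overlap, at 0.311 to 5.26 CPM against 12.3 to 736 CPM. How many of all genes have such a gap was not counted, so it is not read as a result. For Cbr2 the log2 difference was -1.47 (SE 0.683, adjusted p = 1), at 46.3 to 90.9 CPM against 70.2 to 425 CPM.

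The bronchiolar tumoroid was compared with the 6 alveolar ones by value, since a single library allows no test. The paper told bronchiolar from alveolar tumoroids by lineage markers, and its staining included CCSP, the product of Scgb1a1. The difference in Scgb1a1 is thus in part set by the naming. Of the 10 members, 7 were at least 4-fold higher than the mean of the alveolar tumoroids and above all 6, and none was 4-fold lower, where 5.15% of 20104 genes were 4-fold higher and 4.58% 4-fold lower. Against the highest alveolar tumoroid, Scgb3a2 was 2040-fold and Scgb3a1 206-fold higher, although that comparator held only 11 and 12 reads. Cyp4b1 was 15.0-fold, Aldh3a1 14.1-fold, Cbr2 4.92-fold, Scgb1a1 3.22-fold and Cyp2f2 2.88-fold above the highest alveolar tumoroid. Gsta4 was 2.69-fold above the highest and did not reach the limit against the mean. Aldh1a1 lay inside the alveolar range, and Aldh1a7 was 1.53-fold above the lowest alveolar tumoroid and below the other 5. The bronchiolar BASC organoid culture against the alveolar one gave 4 members at least 4-fold higher (Scgb3a1 24.0-fold, Scgb1a1 7.39-fold, Cbr2 5.49-fold and Scgb3a2 4.18-fold), where 5.11% of genes were 4-fold higher and 5.35% 4-fold lower. Relative to the bronchiolar organoids, the bronchiolar tumoroid held 5.51-fold more Aldh3a1 and 4.25-fold more Scgb3a2, but 0.163 of the Scgb3a1 level and 0.687 of the Cbr2 level, across platforms.

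Genes that resembled a member over the 18 cultures were sought among the 20103 other genes that passed the filter, by Pearson r of log2 CPM. The genes nearest to Scgb1a1 were Pm20d1 (r = 0.830), Zmat4 (0.806), B3gnt6 (0.794), Gm43909 (0.784) and Hp, which encodes haptoglobin (0.782). Those nearest to Cyp2f2 were its fellow member Cyp4b1 (0.950), then Zfp46 (0.936), Klhdc7a (0.934), the epithelial transcription factor gene Ehf (0.932) and Dgka (0.930). These values describe 18 libraries that share platforms and culture types, and no gene of one list was in the other.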

How the data were processed

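RNA was sequenced from 18 mouse cultures. The authors trimmed reads with Trimmomatic (0.39), aligned them with STAR (2.6.1d) to GRCm38 and deposited, for each gene, the expected count estimated by RSEM (1.3.2), with no scaling across libraries. TPM, which scales for transcript length, was deposited by the authors as well and was used to compare genes with each other and in an alternative. Symbols and positions came from GENCODE vM21, and upstream sequences from RefSeq (GRCm38.p6), which held windows for 6 of the 10 members.

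After rounding, the expected counts were fitted in R 4.3.3 with edgeR 4.0.16 (filterByExpr, TMM, quasi-likelihood test, two-sided), and a gene was called where its p, adjusted by Benjamini and Hochberg's method over all genes tested, was below 0.05. One fit over 3 sources served the 10 organoid cultures. In the comparisons of bronchiolar with alveolar cultures, with 1 sample in an arm, values and a fold of 4 between mean log2 CPM were used, with no test. Some alternatives left an arm with 1 sample, whose spread was then assumed to be that of the other samples. No source says that cultures of a group came from separate animals. By the paper, the sorted cells of each population were divided between the viruses, and BASC subcultures were picked by morphology during passage. Different viruses or subcultures thus stand in for replicates. The p-values measure the spread between these samples, not between sorts or animals. Alternatives were DESeq2 1.42.0, RLE factors, no filter on low counts, limma 3.58.1 on log2(TPM + 1), leaving out each sample, and other arms. Depth was 15327265 to 97191624 counts a library. The fits were also run on simulated counts drawn with the same spread for every gene. The arms here mix sorts, viruses and subcultures, so that run does not show how the tests behave on them.

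The members and the gene lists were chosen with earlier results of these data known. Named were all members, from each of the 2 other lists the 2 genes per comparison and direction with the largest log2 fold change among those called, the 5 genes most like Scgb1a1 and Cyp2f2, and cell type markers that moved with a member. The autochthonous tumoroid entered no comparison.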

Additional observations from a re-analysis of the deposited data

Results flagged for a closer look

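In the groups of 4 to 7 samples, each member's highest and lowest level was set against the range of its group, in 50 gene and group pairs on log2 CPM, and 8 stood apart. The groups hold unlike cultures, and the 6 alveolar tumoroids lie within the 7 transplant tumoroids. The 8 are therefore not set against a chance rate. Among the 7 transplant tumoroids the bronchiolar one was far above the others for Scgb3a1 (102 CPM), Scgb3a2 (927 CPM) and Aldh3a1 (69.6 CPM). AT2 tumoroid replicate 3, in which fibroblast markers summed to 10250 CPM, was far below the others for Aldh1a1 (9.01 CPM, among the 7 and among the 6 alveolar tumoroids), Aldh1a7 (20.7 CPM) and Gsta4 (59.1 CPM) among the 6. For Scgb3a2 the mixed BASC tumoroid replicate 2 stood above the other 5 alveolar tumoroids at 0.454 CPM, from 11 reads.

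The autochthonous tumoroid, which no comparison used, held more Aldh1a7 (181 CPM) than the highest of the 4 Ad-GFP cultures (164 CPM), across platforms. AT2 tumoroid replicate 1 (166 CPM) also lay above that culture, and mixed BASC tumoroid replicate 1 (162 CPM) just below it. These results are given as values, and what lies behind them was not tested.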

How the results depend on the processing

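Leaving out 1 sample at a time moved the number of members called between 0 and 9 (trachea against AT2, 9 with all), 0 and 6 (trachea against BASC, 0), 0 and 8 (BASC against AT2, 0), 0 and 7 (club-sorted against bronchiolar-containing BASC, 0), 1 and 3 (club- against basal-sorted, 1) and 0 and 4 (tumoroids against distal Ad-Cre organoids, 0). DESeq2 called 1 member for trachea against BASC, 8 for BASC against AT2, 1 for club-sorted against BASC and 3 for club- against basal-sorted. With limma on log2(TPM + 1) the counts were 1, 1, 0 and 1 in these, among 27, 337, 0 and 6 genes called. For tumoroids against organoids limma called 2 members among 2733 genes. Without the filter on low counts 2 members were called for BASC against AT2 and 4 for club- against basal-sorted. Fitting only trachea and BASC called 1 member and 4 genes, and the 6 alveolar tumoroids alone 4 members and 3716 genes. The 9 members called for trachea against AT2 with all cultures came with 8755 of 19349 genes. With 1 sample left out, 6 members for trachea against BASC came with 3614 of 19105 genes. The 8 for BASC against AT2 came with 9298 of 19516. The 7 for club-sorted against BASC came with 1933 of 17640, and the 4 for tumoroids against organoids with 3716 of 15965. In the 2 tests between AT2 and mixed BASC tumoroids and between the viruses, 0 members were called under every alternative run, dropping the population block included.

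Among the fold changes printed for members, signs changed for Scgb3a1 in club-sorted against BASC cultures with the bronchiolar culture alone (0.23), for Scgb3a2 there with one sample left out (lowest -0.058, without the bronchiolar BASC culture, highest 0.883), for Aldh3a1 there without one sample (lowest -0.21, highest 1.70), and for Scgb1a1 in tumoroids against organoids with one sample left out (lowest -2.24, without the bronchiolar tumoroid, highest 0.353, without the bronchiolar BASC culture). Others changed sign too, such as Aldh3a1 in tumoroids against organoids (-1.76 to 1.06). Counts of all genes called by edgeR rose without the filter from 46 to 650 for club- against basal-sorted cultures and from 0 to 312 for BASC against AT2, and DESeq2 called 218 and 4429 there, 1303 for trachea against BASC (2 by edgeR) and 4624 for tumoroids against organoids. Causes were not tested. Replicate numbers were given in accession order and pair no samples. The viruses were paired by sorted population, and with virus as a block the club- against basal-sorted fit called 1 member and 50 genes. Depth limits Scgb3a1 and Scgb3a2 in alveolar tumoroids, where most libraries held at most 3 reads.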
